A study of Mus musculus with 8 samples.

Results

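The chaperonin genes examined here were 3 BBS chaperonin-like genes (Mkks, Bbs10 and Bbs12) and 7 subunit genes of the cytosolic chaperonin CCT, also called TRiC (Tcp1, Cct2, Cct3, Cct4, Cct5, Cct7 and Cct8). They were selected by gene symbol, by a rule that uses no measured value although earlier results of these data were known, and all 10 were found among the 31053 genes of the count table. The CCT subunit gene Cct6a was not analysed here.

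CCT is a ring-shaped chaperonin that folds newly made proteins in its central cavity with the use of ATP, and actin and tubulin are its best known substrates. The proteins encoded by Mkks (also known as BBS6), Bbs10 and Bbs12 are vertebrate relatives of the CCT subunits. They act with CCT on BBS7 and other BBSome subunits during the assembly of the BBSome, the complex that carries membrane proteins in and out of the primary cilium. Mutations in each of these 3 genes cause Bardet-Biedl syndrome, a ciliopathy with retinal degeneration. Bbs8, annotated as Ttc8, encodes a subunit of the BBSome itself and not a chaperonin, so the comparison addresses whether loss of a BBSome subunit goes along with a change in the genes that assemble it.

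Transcripts were counted by QuantSeq 3′ mRNA sequencing in eyecups of C57/Bl6 mice at postnatal day 11 (P11), which received no treatment. There were 4 wild-type (Bbs8+/+) and 4 knockout (Bbs8-/-) libraries, labelled as biological replicates, and the study's methods count each animal as 1 replicate. The knockout is not restricted to the RPE, so photoreceptors and the other tissues of the eye lacked Bbs8 as well. An eyecup is the tissue left once cornea, lens, retina and optic nerve are taken off, so it holds the retinal pigment epithelium (RPE) together with choroid and sclera, and in such tissue fewer cells of a type and less RNA per cell cannot be told apart. Levels are given as CPM (read counts scaled to a common library size), adjusted by the TMM method. QuantSeq reads 1 tag near the 3′ end of each transcript, so these levels were not divided by gene length, and comparisons of levels between genes also depend on how well each 3′ end can be aligned.

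The libraries held 1636725 to 2884983 gene counts, and 3 counts, taken as the lowest level that this depth can show, came to 1.04 to 1.83 CPM. Ttc8 had 34, 50, 39 and 62 counts in Bbs8+/+ replicates 1 to 4 and 16, 7, 5 and 9 counts in Bbs8-/- replicates 1 to 4, a log2 fold change of -1.95 ± 0.317 (SE; edgeR quasi-likelihood test, adjusted p = 2.75e-06). The genotypes therefore did not overlap for the targeted gene. Of the 6 RPE markers, 5 were well above that level in every library, while Best1 had 0 to 10 counts. The RPE markers summed to 15560 to 16600 CPM in Bbs8+/+ and 16750 to 16990 CPM in Bbs8-/-, most of it Ttr (10250 to 11440 CPM against 11610 to 11760 CPM). Rpe65 was at 1893 to 2132 CPM in Bbs8+/+ and 1746 to 1932 CPM in Bbs8-/-, in the direction opposite to the sum, and no RPE marker was called. Markers of several other cell types moved with genotype: 4 of 8 lens markers rose (summed level 196 to 232 CPM against 417 to 439 CPM), as did 1 of 6 macrophage markers (337 to 360 CPM against 387 to 445 CPM). Of 6 muscle markers 1, Myh8, rose, but most of their sum (2078 to 2167 CPM against 2285 to 2398 CPM) was Ttn, which was not called. Of the photoreceptor markers 2 of 6 fell, and of the fibroblast markers 3 of 6, while 2 fibroblast markers had a log2 fold change above 0. Of 6 endothelium markers 0 were called (650.3 to 676.7 CPM against 624.4 to 695.5 CPM). Of the 6 melanocyte markers 5 fell, but pigment genes among them, such as Dct, Pmel and Tyrp1, are also expressed by the RPE. Reads outside annotated genes took 42.2% to 43.4% of uniquely aligned reads in Bbs8+/+ and 44.1% to 44.4% in Bbs8-/-. Mitochondrial genes took 3.59% to 3.82% of gene counts in Bbs8+/+ and 3.19% to 3.33% in Bbs8-/-, without overlap. Xist, which is expressed in females (571 to 747 CPM), and Y-linked genes were found together in every library, and both differed with genotype (sum of 4 Y-linked genes 59.1 to 65.0 CPM against 108 to 120 CPM). A single animal would not be expected to give both, so these values conflict with a library of 1 animal, and the number of animals behind each library is uncertain. The SDs, intervals and p-values given here therefore describe the spread between libraries. Whether that is a spread between animals, between pools or between preparations is not known. The part of these differences in the values below was not tested.

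No chaperonin gene passed the threshold between the genotypes. At an FDR of 0.05 in edgeR's quasi-likelihood test 0 of 10 were called, against 2.24% of the 13813 tested genes (309 genes, 152 higher and 157 lower in Bbs8-/-). At an unadjusted p under 0.05 there were 2 of 10, Tcp1 with a higher and Cct2 with a lower level in Bbs8-/-, where 13.0% of all tested genes had such a p. With the DESeq2 Wald test 0 of the 9 genes given an adjusted p were called (Bbs12 received none), and none of the 10 had an unadjusted p under 0.05. The 2 genotypes overlapped for each of the 10, and 7.38% of all tested genes showed no overlap. All 10 passed the filter on low counts, which asks for 1 CPM in 4 or more libraries. Bbs12, with a mean of 1.04 CPM, only just did so, in Bbs8+/+ replicate 2 and Bbs8-/- replicates 1, 3 and 4. It thus entered the test mainly through the genotype where it was higher, which limits the reading of its fold change.

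**Figure D1:**
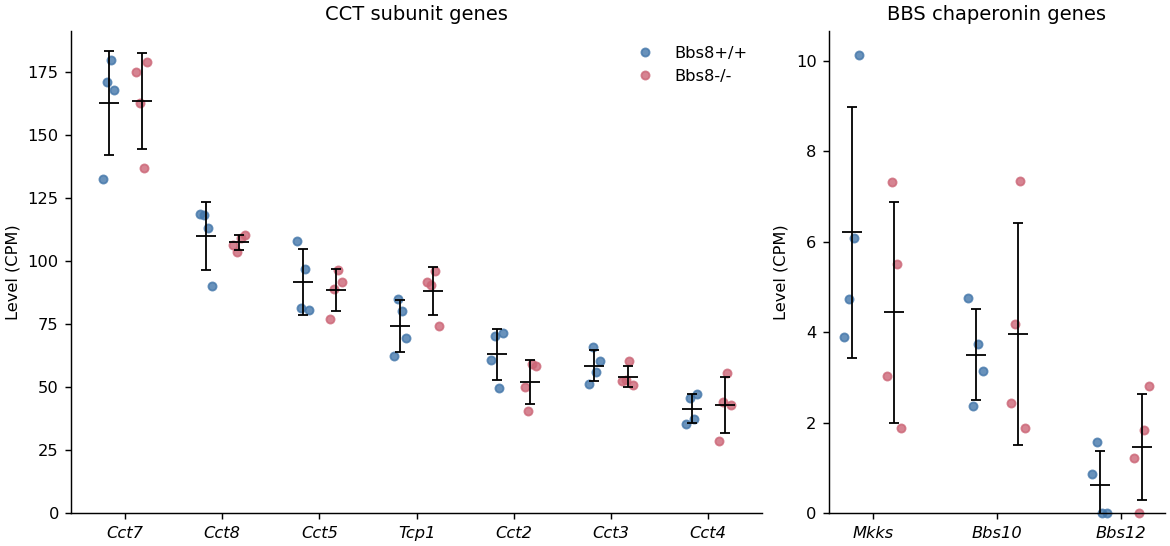
Level of each chaperonin gene in CPM (vertical axes, linear from 0), with 1 point per library, the mean as a horizontal bar and the SD as an error bar (n = 4 per genotype). The CCT genes lie between 28.6 and 180 CPM and the BBS chaperonin genes between 0 and 10.1 CPM, and the blue (Bbs8+/+) and red (Bbs8-/-) points overlap for every gene.

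The BBS chaperonin genes were expressed far below the CCT subunits. The 3 genes together reached 10.3 ± 2.04 CPM (SD, n = 4) in wild-type and 9.86 ± 3.97 CPM in knockout libraries. The sum of the 7 CCT genes was 569 to 637 CPM in the former and 581 to 614 CPM in the latter. In each library the CCT sum was 41.8 to 92.9 times the BBS chaperonin sum. The lowest CCT gene, Cct4, was above the highest BBS chaperonin gene, Mkks, in 8 of 8 libraries, and the ratio of their mean levels was 7.91.

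Mkks encodes the first of the 3 BBS chaperonin-like proteins and lies at chr2:136873780-136891389 on the minus strand (GRCm38, GENCODE M21; ENSMUSG00000027274). It had 3.88, 4.73, 6.08 and 10.1 CPM in Bbs8+/+ replicates 1 to 4 and 3.04, 7.32, 5.51 and 1.87 CPM in Bbs8-/- replicates 1 to 4, from 4 to 29 counts per library. Bbs8+/+ replicate 4 was the highest library and Bbs8-/- replicate 4 the lowest, and the other 6 were mixed. The log2 fold change was -0.49 ± 0.443 (SE), with a 95% interval of -1.37 to 0.38 (edgeR adjusted p = 0.712). On a linear scale this interval runs from 0.387 to 1.30 times the wild-type level. With single libraries left out the log2 fold change ran from -0.83 (without Bbs8-/- replicate 2) to -0.13 (without Bbs8+/+ replicate 4).

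Bbs10 (chr10:111298679-111301727, plus strand; ENSMUSG00000035759) encodes a second relative of the CCT subunits, one of the genes most often mutated in Bardet-Biedl syndrome. It had 4.75, 2.36, 3.74 and 3.15 CPM in Bbs8+/+ and 2.43, 4.18, 7.35 and 1.87 CPM in Bbs8-/-, with both the highest and the lowest value among the knockout libraries. The log2 fold change was 0.20 ± 0.536 (95% interval -0.86 to 1.26, edgeR adjusted p = 0.929). Without Bbs8-/- replicate 3, the highest library, it was -0.30.

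Bbs12 (chr3:37312554-37321453, plus strand; ENSMUSG00000051444) was at the limit of detection. It had 2, 4, 0 and 0 counts in Bbs8+/+ replicates 1 to 4 and 2, 0, 4 and 6 counts in Bbs8-/- replicates 1 to 4, or 6 against 12 counts in all. Of the 8 libraries, 3 held no Bbs12 count, and a count of 0 allows up to 1.04 to 1.56 CPM in these libraries. The fitted log2 fold change was 1.22 ± 0.963 with a 95% interval of -0.68 to 3.13 (edgeR adjusted p = 0.65), which on a linear scale covers 0.625 to 8.75 times the wild-type level. Without Bbs8+/+ replicate 4 the log2 fold change was 0.79. Without Bbs8+/+ replicate 2 or Bbs8-/- replicate 1, 3 or 4 the gene no longer passed the filter, so no value was available.

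The 3 genes varied widely between libraries. The coefficient of variation (CV, SD over mean) between the Bbs8+/+ libraries was 44.7% for Mkks, 28.7% for Bbs10 and 125% for Bbs12. The CV expected from counting noise alone, taken from the mean count, was 25.2%, 34.3% and 81.7%. In Bbs8-/- the observed CVs were 55.3%, 62.3% and 80.3%, against 33.8%, 35.4% and 57.7% from counting. For the order of the levels, Mkks was above Bbs10 in 5 of 8 libraries and Bbs10 above Bbs12 in 7 of 8, so that Mkks and Bbs10 could not be ordered.

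**Figure D2:**
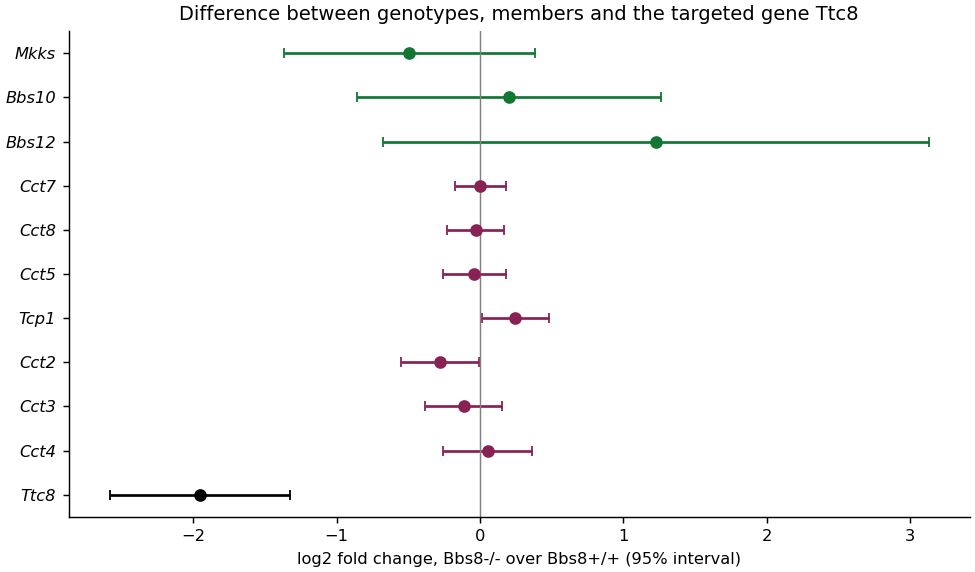
Log2 fold change of Bbs8-/- over Bbs8+/+ (horizontal axis) with its 95% interval for the 3 BBS chaperonin genes (green), the 7 CCT genes (purple) and the targeted gene Ttc8 (black), from the edgeR fit on 4 libraries per genotype. The interval of Ttc8 lies wholly below 0, the CCT intervals stay within -0.55 and 0.48, and that of Bbs12 reaches from -0.68 to 3.13.

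The CCT subunits were moderately expressed, at a mean of 42.1 CPM (Cct4) to 163 CPM (Cct7). In order of the mean over the 8 libraries they were Cct7 (163 CPM), Cct8 (109 CPM), Cct5 (90.1 CPM), Tcp1 (81.2 CPM), Cct2 (57.5 CPM), Cct3 (56.2 CPM) and Cct4 (42.1 CPM). Cct7 stood apart, since its lowest library (132 CPM) was above the highest library of Cct8 (119 CPM). Cct8 exceeded Cct5, and Cct3 exceeded Cct4, in 8 of 8 libraries, although the ranges overlapped. Cct5 was above Tcp1 in only 5 of 8 libraries and Cct2 above Cct3 in 4 of 8, so neither pair could be ordered. As background, each ring of CCT holds 1 copy of every subunit protein. The counted mRNA levels spanned a ratio of 3.87 between Cct7 and Cct4.

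Tcp1, the gene of the CCT alpha subunit, lies at chr17:12915701-12925067 on the plus strand (ENSMUSG00000068039). It had 62.1, 85.1, 80.0 and 69.6 CPM in Bbs8+/+ replicates 1 to 4 and 91.7, 90.5, 96.0 and 74.4 CPM in Bbs8-/- replicates 1 to 4. The knockout libraries were all above the wild-type mean of 74.2 CPM, and 3 of them were above every wild-type library, while Bbs8-/- replicate 4 lay within the wild-type range. The log2 fold change was 0.25 ± 0.116 (95% interval 0.02 to 0.48), a 1.19-fold difference with an edgeR adjusted p of 0.34, so it did not pass the threshold. The last 500 bases of the Tcp1 transcript overlap Acat3 on the opposite strand, and 47.9% of the 50-base words in that stretch also occur, reversed, in Acat3 or Acat2 transcripts. Whether the counting used strand is not given in the sources used here. Acat3 had 1 to 12 counts per library and Acat2 28 to 57, against 144 to 216 for Tcp1, and neither was called (adjusted p = 0.845 and 0.78).

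Cct2, the gene of the beta subunit (chr10:117051001-117063814, minus strand; ENSMUSG00000034024), differed in the other direction. It had 60.8, 70.1, 49.6 and 71.3 CPM in Bbs8+/+ replicates 1 to 4 and 49.8, 40.3, 59.3 and 58.5 CPM in Bbs8-/- replicates 1 to 4. All knockout libraries were below the wild-type mean of 63.0 CPM, but Bbs8+/+ replicate 3 was lower than 3 of the 4. The log2 fold change was -0.28 ± 0.137 (95% interval -0.55 to -0.01), or 0.825 times the wild-type level, with an edgeR adjusted p of 0.369. No stretch of 50 bases in the last 500 of its transcript was found in another gene.

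Since Tcp1 and Cct2 were picked out for their opposite differences, their ratio is given as a description only. Tcp1 was 1.02, 1.21, 1.61 and 0.975 times Cct2 in Bbs8+/+ replicates 1 to 4 and 1.84, 2.25, 1.62 and 1.27 times Cct2 in Bbs8-/- replicates 1 to 4. The highest ratios were in knockout libraries, with Bbs8-/- replicate 4 inside the wild-type range. As a share of the CCT sum, Tcp1 made up 12.3% ± 1.12 in Bbs8+/+ and 14.8% ± 1.72 in Bbs8-/-, and Cct2 10.5% ± 1.70 and 8.69% ± 1.29 (SD, n = 4).

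**Figure D3:**
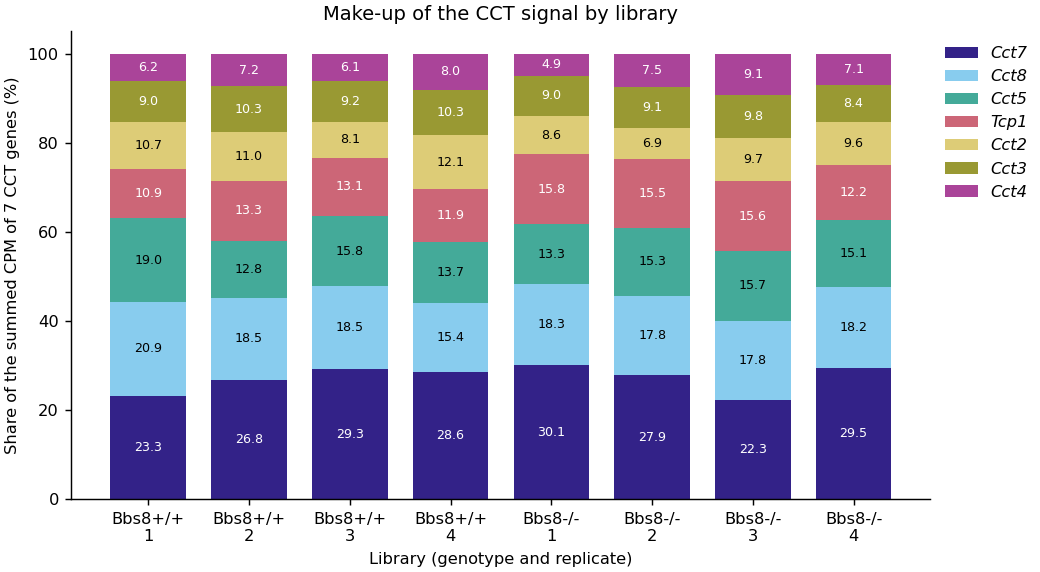
Share of each CCT gene in the summed CPM of the 7 genes (vertical axis, %) for each library (bars, labelled by genotype and replicate). Cct7 takes 22.3% to 30.1% in every bar and Cct4 4.92% to 9.06%, while Tcp1 takes 10.9% to 13.3% in the Bbs8+/+ bars and 12.2% to 15.8% in the Bbs8-/- bars.

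The other 5 CCT genes gave log2 fold changes between -0.11 and 0.05 (edgeR adjusted p 0.807 to 0.994). Cct7, the eta subunit gene (chr6:85451514-85468475, plus strand; ENSMUSG00000030007), had 132, 171, 180 and 168 CPM in Bbs8+/+ and 175, 163, 137 and 179 CPM in Bbs8-/-, with 1 low library in each genotype. Its log2 fold change was 0.00 ± 0.0884, and the 95% interval of -0.17 to 0.18 corresponds to 0.888 to 1.13 times the wild-type level. With 288 to 480 counts per library it was the most precisely measured of the 10.

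Cct8, the theta subunit gene (chr16:87483326-87495873, minus strand; ENSMUSG00000025613), had 119, 118, 113 and 90.2 CPM in Bbs8+/+ and 106, 104, 109 and 110 CPM in Bbs8-/-. The knockout libraries agreed within a CV of 2.88%, below the 6.87% that counting gives on average, whereas the wild-type CV was 12.2% through the low replicate 4. Its log2 fold change was -0.03 ± 0.101 (95% interval -0.23 to 0.17). Its 3′ end overlaps that of Usp16 on the opposite strand, in which 31.7% of the 50-base words of the last 500 bases occur, and Usp16 had 164 to 271 counts per library with no call (adjusted p = 0.515).

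Cct5, the epsilon subunit gene (chr15:31590800-31601804, minus strand; ENSMUSG00000022234), had 108, 81.5, 96.8 and 80.4 CPM in Bbs8+/+ and 77.1, 88.9, 96.5 and 91.7 CPM in Bbs8-/-. The highest library was wild type and the lowest knockout, with the others mixed, and the log2 fold change was -0.04 ± 0.111 (95% interval -0.26 to 0.18). Cct3, the gamma subunit gene (chr3:88297116-88321767, plus strand; ENSMUSG00000001416), had 51.4, 65.8, 56.1 and 60.5 CPM in Bbs8+/+ and 52.2, 52.8, 60.2 and 51.0 CPM in Bbs8-/-. Its log2 fold change was -0.11 ± 0.135 (95% interval -0.38 to 0.15), and -0.05 without Bbs8+/+ replicate 2.

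Cct4, the delta subunit gene (chr11:22990519-23003780, plus strand; ENSMUSG00000007739), had 35.4, 45.7, 37.4 and 47.2 CPM in Bbs8+/+ and 28.6, 43.9, 55.6 and 43.0 CPM in Bbs8-/-. Both extremes were knockout libraries, the CV was 14.2% in Bbs8+/+ and 25.9% in Bbs8-/-, and the log2 fold change was 0.05 ± 0.158 (95% interval -0.26 to 0.37). Over the 7 CCT genes, 3 had a log2 fold change above 0 and 4 below 0, and the median was -0.03, where the median of all 13813 tested genes was 0.00. All 7 of their 95% intervals lay between 0.684 and 1.39 times the wild-type level, so a 2-fold difference in either direction was outside the interval of every CCT gene. The interval of Mkks included a 2-fold lower level, and those of Bbs10 and Bbs12 a 2-fold higher one.

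**Figure D4:**
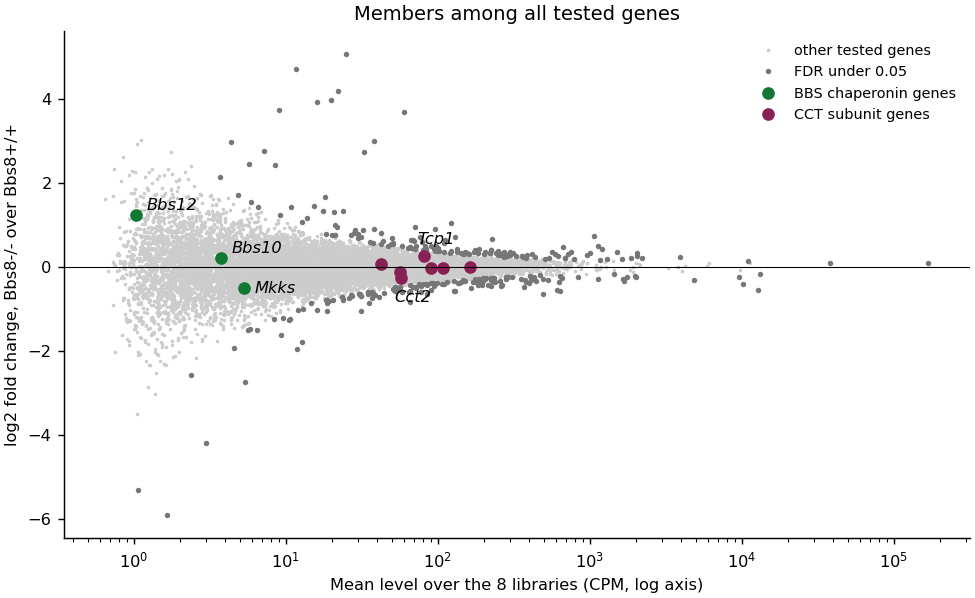
Log2 fold change of Bbs8-/- over Bbs8+/+ (vertical axis) against the mean level over the 8 libraries (horizontal axis, CPM, log scale) for all 13813 tested genes, with those past an FDR of 0.05 in dark grey, the BBS chaperonin genes in green and the CCT genes in purple. The CCT genes lie close to 0 at 42.1 to 163 CPM, and the BBS chaperonin genes lie at 1.04 to 5.32 CPM, where fold changes of all genes scatter more widely.

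The mean log2 level of the 7 CCT genes varied little between libraries, by 0.225 from the lowest (Bbs8-/- replicate 1) to the highest (Bbs8+/+ replicate 2), and averaged 6.30 ± 0.0784 for wild-type and 6.27 ± 0.0905 for knockout libraries (log2 CPM, SD, n = 4). Among 9035 other tested genes with a mean of at least 10 CPM, those with the most similar pattern over the 8 libraries were Khdc4 (Pearson r = 0.958), Bola3 (0.952), Sema6d (0.933), Lmx1b (0.93) and Agpat2 (0.917). These are the highest values among 9035 genes over only 8 points that share library depth, and they are given as a description. None of the 5 was called between the genotypes (adjusted p 0.726 to 0.923).

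Several of the chaperonin genes start close to a gene on the other strand. In 6 of 10 (60%) the start lay within 1000 bases of the start of a protein-coding gene in the opposite direction, whether or not the pair overlapped, compared with 15.2% of the 13229 protein-coding genes tested. The partners were Slx4ip for Mkks, Cetn4 for Bbs12, Mrpl18 for Tcp1, Tsacc for Cct3, Fam173b for Cct5 and Pradc1 for Cct7, and Tsacc itself encodes a co-chaperone, the activator of the testis kinase TSSK6. None of the 6 partners was called (edgeR adjusted p 0.439 to 0.92). Mrpl18, the most abundant, had 33.7 to 62.2 CPM in Bbs8+/+ and 46.3 to 61.2 CPM in Bbs8-/-.

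The sequence between the RefSeq starts is shown for the 3 pairs with the fewest bases between them, out of 4 for which 1 promoter window held both starts with their flanks. The remaining pair, Cct7 with Pradc1, has 202 bases between the starts and is not shown. Slx4ip has 4 RefSeq starts and Tsacc also has another, and the stretch shown for each pair runs to a single one of them. A further Slx4ip start, at chr2:136891218, lies within Mkks. Each is written 5′ to 3′ on the strand of the chaperonin gene, with the bases between the starts in capitals and the starts with 20 flanking bases on either side in lower case (RefSeq, GRCm38.p6). The pairs are Bbs12 with Cetn4 at chr3:37312426-37312574, Cct3 with Tsacc at chr3:88296979-88297155, and Mkks with Slx4ip at chr2:136891386-136891614, with 107, 135 and 187 bases between the starts.
Bbs12 and Cetn4: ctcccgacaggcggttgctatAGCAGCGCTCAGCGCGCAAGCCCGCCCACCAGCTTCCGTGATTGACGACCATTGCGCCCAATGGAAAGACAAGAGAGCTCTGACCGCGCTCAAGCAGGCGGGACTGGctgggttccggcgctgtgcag
Cct3 and Tsacc: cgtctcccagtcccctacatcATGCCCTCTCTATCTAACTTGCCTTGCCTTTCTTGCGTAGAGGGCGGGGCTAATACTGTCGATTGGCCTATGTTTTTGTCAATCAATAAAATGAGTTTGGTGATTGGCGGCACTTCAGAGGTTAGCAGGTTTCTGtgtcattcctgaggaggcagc
Mkks and Slx4ip: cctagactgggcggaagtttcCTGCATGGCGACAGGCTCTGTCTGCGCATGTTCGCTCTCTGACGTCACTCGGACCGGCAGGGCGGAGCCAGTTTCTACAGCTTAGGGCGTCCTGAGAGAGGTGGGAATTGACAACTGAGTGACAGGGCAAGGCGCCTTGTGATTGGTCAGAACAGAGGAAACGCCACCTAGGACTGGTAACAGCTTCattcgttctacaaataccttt

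Across the Bbs12 and Cetn4 pair, both genes were low and uneven. Cetn4, which encodes a centrin of the ciliary basal body, had 19, 31, 8 and 4 counts in Bbs8+/+ replicates 1 to 4 and 2, 1, 11 and 13 counts in Bbs8-/- replicates 1 to 4. The 3 libraries with no Bbs12 count held 8, 4 and 1 Cetn4 counts. Its log2 fold change was -0.91 ± 0.496 (edgeR adjusted p = 0.439), of the opposite sign to that of Bbs12. Slx4ip, across from Mkks, had 11 to 36 counts per library and a log2 fold change of -0.39 ± 0.308, and Tsacc, across from Cct3, had 3 to 8 counts.

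Promoter windows, from 250 bases before to 50 bases after the RefSeq start, were matched for 9 of the 10 genes (11 windows), Cct4 being the exception. Their median GC content was 60.3% (47.3% to 67.7%) against 52.7% over all 32851 windows, and their median number of CpG dinucleotides was 25 against 7. The core of the heat shock element, GAANNTTC, which reads the same on both strands, was searched because CCT genes are known targets of heat shock factors. It occurred in 2 of 11 windows (18.2%) and in 7.86% of all windows. Both matches are shown with the motif in capitals, on the strand of the gene, at chr10:117063399-117063428 for Cct2 and chr2:136891583-136891612 for Mkks.
Cct2: ccccaagtgaaGAAGTTTCtagcaggacct
Mkks: tagactgggcgGAAGTTTCctgcatggcga

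The Cct2 match began 42 bases before 1 of the 2 RefSeq starts of Cct2 and lay downstream of the other, whose window held no match. The Mkks match began 195 bases before the start, and its last base was 1 of the 4 RefSeq starts of Slx4ip. These matches describe the letters of the windows only. The genes of the heat shock system around CCT were read from the same fit.

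Among the genes that work with the chaperonins, 56 of 60 listed genes could be tested. Of these 3 rose in Bbs8-/- and 0 fell at an FDR of 0.05, and 12 had an unadjusted p under 0.05, with 6 in each direction, where the shares over all tested genes were 2.24% and 13.0%. These lists were not tested against other genes. The median log2 fold change of the 56 was -0.01. The 3 that rose were Actb, Tuba1c and Hsp90ab1, which are all abundant and for which the SE was below 0.08.

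Prefoldin hands unfolded actin and tubulin to CCT. None of its 6 genes was called, and the median log2 fold change was -0.11 (range -0.33 to 0.14), with the smallest p for Pfdn2 (log2 fold change -0.28 ± 0.191, edgeR adjusted p = 0.571). The phosducin-like proteins regulate CCT and, in the case of Pdcl, its folding of G protein beta subunits. Of the 3 that could be tested 0 were called, and Pdcl had a log2 fold change of -0.30 ± 0.226 (edgeR adjusted p = 0.636). The testis subunit gene Cct6b had 0 to 2 counts and Pdcl2 0 counts in each library, below the filter.

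Among the substrates, 1 actin and 1 tubulin gene rose in Bbs8-/-. Actb, cytoplasmic beta-actin, had 3603, 3505, 3867 and 3479 CPM in Bbs8+/+ replicates 1 to 4 and 4146, 4125, 4232 and 4392 CPM in Bbs8-/- replicates 1 to 4. The genotypes did not overlap, and the log2 fold change was 0.23 ± 0.0366, or 1.17-fold (edgeR adjusted p = 2.77e-06). Tuba1c, an alpha-tubulin, had 246, 223, 241 and 236 CPM against 273, 279, 273 and 321 CPM, again without overlap, with a log2 fold change of 0.28 ± 0.0719 (edgeR adjusted p = 0.0123). Without Bbs8-/- replicate 4, the highest library, Tuba1c no longer passed (edgeR adjusted p = 0.154), and without Bbs8+/+ replicate 2 its adjusted p was 0.0744. The other 10 genes of the list were not called, and the 9 alpha- and beta-tubulin genes summed to 2082 ± 118 CPM in Bbs8+/+ and 2079 ± 143 CPM in Bbs8-/-. At an unadjusted p under 0.05 in the edgeR test, 1 of these 9, Tuba1c, was higher and 2 were lower. Among all tested genes 13.0% had such a p. Actin and tubulin genes are families with similar copies, so how reads were divided among them is uncertain.

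The tubulin cofactors take alpha- and beta-tubulin from CCT and join them into dimers. None of the 6 was called, 5 had a log2 fold change above 0, and the median was 0.21. Tbca, which holds beta-tubulin, had 109, 105, 115 and 108 CPM in Bbs8+/+ and 123, 122, 121 and 133 CPM in Bbs8-/-. These values did not overlap, yet with a log2 fold change of 0.20 ± 0.0961 the edgeR adjusted p was 0.364. None of the 5 G protein beta genes was called, with the smallest p for Gnb4 (log2 fold change 0.23 ± 0.108, edgeR adjusted p = 0.35).

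The BBSome subunits other than Ttc8, with the partners Arl6 and Lztfl1, are the substrates of the BBS chaperonins or act with the assembled complex. None of the 8 tested was called, 6 had a log2 fold change below 0, and the median was -0.14. Bbs4 had the smallest p, with 13.8, 18.5, 17.3 and 24.1 CPM in Bbs8+/+ and 29.2, 22.5, 22.5 and 29.9 CPM in Bbs8-/-. Only Bbs8+/+ replicate 4 reached into the knockout range, and the log2 fold change was 0.48 ± 0.211 (edgeR adjusted p = 0.29). Arl6, the GTPase that recruits the BBSome to membranes, was named after its values had been seen, with 11.7, 11.0, 7.02 and 7.69 CPM in Bbs8+/+ and 4.86, 3.14, 4.59 and 8.42 CPM in Bbs8-/-. Only Bbs8-/- replicate 4 lay within the wild-type range, and the log2 fold change was -0.81 ± 0.37 (edgeR adjusted p = 0.319). Bbs5 had 0 to 3 counts per library and was not tested.

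The cytosolic HSP70 and HSP90 chaperones fold proteins ahead of or beside CCT. Of 14 genes 1 rose, Hsp90ab1, the constitutive HSP90 beta, with 1480, 1524, 1671 and 1444 CPM in Bbs8+/+ and 1689, 1737, 1672 and 1816 CPM in Bbs8-/-. The lowest knockout and the highest wild-type library were nearly level, and the log2 fold change was 0.18 ± 0.0448 (edgeR adjusted p = 0.01). Without Bbs8-/- replicate 4, Bbs8+/+ replicate 1 or Bbs8+/+ replicate 4 its adjusted p was 0.0717, 0.0603 and 0.0776, and with a likelihood ratio test it was 0.109. The other 13 were not called, and the median of the list was -0.02. Of the 14, 9 had a log2 fold change below 0. At an unadjusted p under 0.05 in the edgeR test, 3 genes were lower and 1, Hsp90ab1, was higher. The share of all tested genes with such a p was 13.0%. The mitochondrial chaperonin genes Hspd1 and Hspe1 encode a chaperonin of the bacterial type and its lid, and had log2 fold changes of -0.17 and -0.05 with 0 of 2 called (edgeR adjusted p = 0.589 for Hspd1, the smaller).

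**Figure D5:**
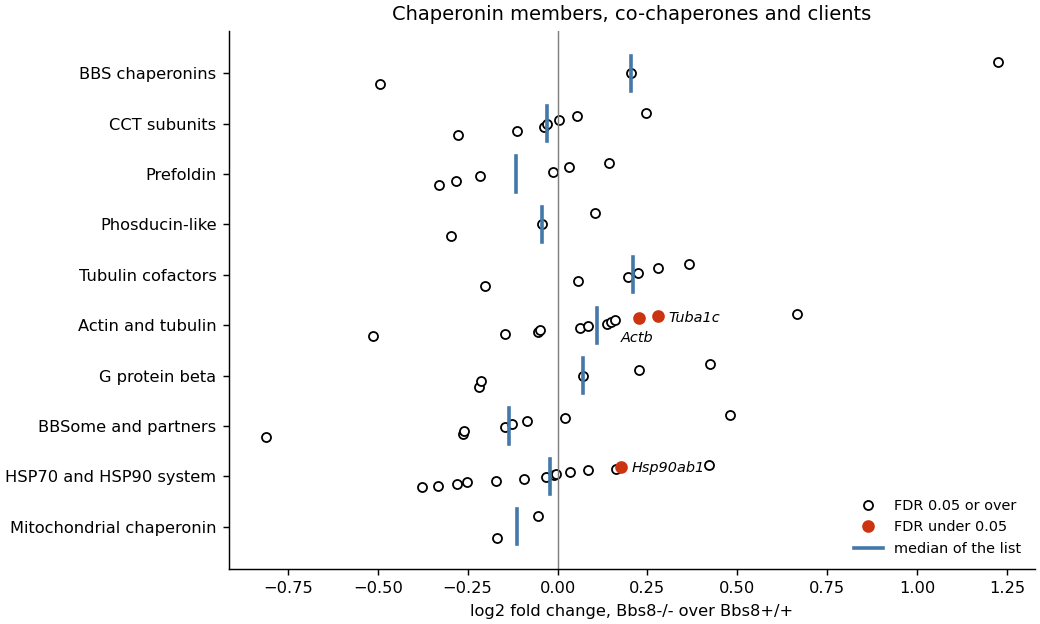
Log2 fold change of Bbs8-/- over Bbs8+/+ (horizontal axis) for each tested gene of the 2 chaperonin groups and of 8 lists of co-chaperones, substrates and other chaperones (rows), with filled red points past an FDR of 0.05 and a blue bar at the median of each list. Only Actb, Tuba1c and Hsp90ab1 are filled, at 0.23, 0.28 and 0.18.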

How the data were processed

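Counts of uniquely aligned reads per gene were deposited by the authors, 1 file per library, as raw whole numbers. To make them, the authors trimmed reads with BBDuk, aligned them to mm10 with STAR and counted them with htseq-count on an Ensembl gene model. The strand setting and molecular identifiers are not given in the sources used here, so the floors of 3 counts and the counting CVs cover counting error only, whereas the 95% intervals also include the spread between libraries. The counter's summary lines were kept out of library totals, and the study's filter on multi-mapped reads was not applied.

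The test was edgeR's (version 4.0.16, R 4.3.3) quasi-likelihood F test, two-sided, with TMM scaling and genotype as the only term, for genes that reached 1 CPM in 4 or more libraries. Benjamini-Hochberg adjustment covered every tested gene, with a threshold of FDR 0.05. The standard error is the log2 fold change divided by the square root of F. DESeq2 1.42.0 was run as an alternative, and the procedure was tested on simulated data. CPM values are mean ± SD with n = 4 per genotype. Likeness of pattern used log2(CPM + 0.5). Symbols and positions came from GENCODE M21 and promoter sequences from RefSeq.

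The chaperonin genes and all lists were chosen with earlier results of these data known. Named genes were the 10 chaperonin genes, Ttc8, and in each list the genes past the threshold or else that with the smallest p. Arl6, Ttn, the chromosomal partners, the genes overlapping at 3′ ends and the Tcp1 to Cct2 ratio were added after values had been seen. Alternatives were RLE size factors, library totals, no filter, filterByExpr, a likelihood ratio test, DESeq2, a replicate block, leaving out each library, thinning to the smallest library total, a library size without Gm42418 and mitochondrial genes, and an FDR of 0.1.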

Additional observations from a re-analysis of the deposited data

Results flagged for a closer look

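For the 10 chaperonin genes, their 2 sums, Ttc8 and the 3 called substrates and chaperones, the 4 libraries of each genotype were checked for a single value far from the others. Of 32 such groups 1 stood out, where chance alone marks about 1 in 20 groups. Tuba1c in Bbs8-/- replicate 4 was at 321 CPM, while the other knockout libraries lay between 273 and 279 CPM, and this gap was 0.864 of the range of the group. No chaperonin gene had such a library.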

How the results depend on the processing

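None of the chaperonin genes that could be tested was called under any of the 18 alternatives, including an FDR of 0.1. The number tested was 8 with filterByExpr. It was 9 without Bbs8+/+ replicate 2 or Bbs8-/- replicate 1, 3 or 4, where Bbs12 dropped out each time. DESeq2 gave Bbs12 no adjusted p. The number with an unadjusted p under 0.05 ranged from 0 to 2, and these were Tcp1, Cct2 or both. Tcp1 and Cct2 kept their directions in 17 of 17 alternatives each, with log2 fold changes of 0.18 to 0.32 and -0.37 to -0.17 (adjusted p 0.229 to 0.613 and 0.176 to 0.71). The CCT genes with fold changes near 0 changed sign in some settings: Cct7 gave -0.0051 with library totals only and -0.0134 when thinned to the smallest total. Bbs10, at low counts and with 0.20 in the main fit, gave -0.0456 when thinned and -0.297 without Bbs8-/- replicate 3. With single libraries left out, the log2 fold change ran from -0.0798 to 0.0828 for Cct7, from -0.118 to 0.0115 for Cct8 and from -0.0983 to 0.0511 for Cct5. The range was -0.0992 to 0.197 for Cct4 and -0.171 to -0.0483 (the latter without Bbs8+/+ replicate 2) for Cct3. It was -0.83 to -0.13 for Mkks and -0.297 to 0.449 for Bbs10. For Bbs12 it was 0.79 (without Bbs8+/+ replicate 4) to 1.62, over only the leave-outs in which this gene could be tested. The median of the BBS chaperonin genes was -0.49 with filterByExpr, which left only Mkks to test, and -0.46 to 0.39 with single libraries left out, where the median of the CCT genes was -0.10 to 0.01. The value of -0.46, without Bbs8-/- replicate 3, was over Mkks and Bbs10 only.

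Ttc8 stayed past the threshold in 17 of 17 alternatives, between -2.44 and -1.70. Leaving out single libraries gave 1 to 4 called genes among the co-chaperones, substrates and other chaperones, 114 to 172 higher and 105 to 150 lower genes among all, and Bbs8-/- replicate 4 was the library without which the first count was 1, Actb alone. For the other alternatives these counts stayed within 1.5 times the reported ones.

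Replicate numbers are shared between the genotypes. With the number as a replicate block 134 genes were higher and 129 lower in Bbs8-/-, with 0 chaperonin genes called and a median log2 fold change of 0.10 for the BBS chaperonin and -0.02 for the CCT genes. The deviations of same-numbered libraries from their group means correlated by 0.019, 0.00342, -0.05 and -0.056 over 6628 genes, and 1 of 4 numbers correlated best with itself, so the numbers were not taken to pair the samples. The BBS chaperonin genes had 0 to 29 counts per library, which limits their precision.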
